A study of Homo sapiens with 18 samples.

Results

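The RNA carried by polysomes was compared between HEK293T cells that expressed YTHDF3-ADAR and HEK293T cells that expressed YTHDF1-ADAR. The members are the 3 polysome libraries of each line, 6 of the 18 libraries of the series, and all genes of the count table were taken up, so that of 60675 gene rows 24390 passed the filter on low counts and were tested. HEK293T is a human embryonic kidney line. In both groups the fusion was switched on with doxycycline (1 µg/mL for 24 h), ribosomes were arrested with cycloheximide (100 µg/mL for 10 min), and lysates were spun through 10% to 50% sucrose. Fractions holding more than 2 ribosomes per mRNA were pooled, and 150 ng of their RNA entered the libraries after removal of ribosomal RNA. The groups differ by label in the fusion alone, no library without a fusion was among the samples, and whether replicates were separate cultures, or how many clones a line holds, is not stated. The p-values thus measure the spread between these libraries, which may be technical.

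YTHDF1 and YTHDF3 are closely related cytoplasmic proteins that bind N6-methyladenosine (m6A) in mRNA through their YTH domain. Fused to the catalytic part of an ADAR deaminase, they leave A-to-G marks on the transcripts they meet, an approach known as TRIBE. An mRNA sediments with polysomes when several ribosomes translate it at the same time, so its polysome level reflects both how much of the mRNA a cell holds and how much of it is being translated. In bulk RNA, fewer cells with a transcript and less of it per cell cannot be told apart.

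The genes of the fusions came first. YTHDF1 stood at 423.8, 363.5 and 384.3 CPM (the count scaled by library size) in YTHDF1-ADAR replicates 1, 2 and 3 and at 109.3, 73.19 and 66.38 in the YTHDF3-ADAR replicates. It was lower in YTHDF3-ADAR libraries by 2.24 ± 0.21 (log2, ± SE; adjusted p = 0.003476 in edgeR's quasi-likelihood test with Benjamini-Hochberg adjustment), with no overlap between the groups. YTHDF3 stood at 91.49, 82.58 and 88.96 CPM in YTHDF1-ADAR libraries and at 105.7, 93.67 and 85.61 in YTHDF3-ADAR libraries. The groups overlapped (log2 difference 0.12 ± 0.12, adjusted p = 0.5396 by edgeR), so YTHDF3 gave no check of the label on polysomes. In total RNA YTHDF3 reached 79.42, 60.81 and 66.02 CPM in YTHDF3-ADAR libraries, each above the 40.23, 51.89 and 57.34 of YTHDF1-ADAR libraries, and was not called (adjusted p = 0.1364 by edgeR). ADARB1, which encodes the deaminase ADAR2, differed between the lines on polysomes. It stood at 260.9, 226.5 and 239.1 CPM in YTHDF1-ADAR libraries and at 1673, 1837 and 1764 in YTHDF3-ADAR libraries. It was thus 7.26-fold higher (log2 2.86 ± 0.16, adjusted p = 0.00028 by edgeR). In YTHDF2-ADAR polysome libraries it stood at 36.8, 39.01 and 37.07 CPM. Each line carries an ADAR fusion by label, so ADARB1 does not show which line is which. The counts do not separate a transgene from the endogenous gene. ADAR (0.15 ± 0.15) and YTHDF2 (-0.26 ± 0.18) were not called.

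The 6 libraries held 42.7e6 to 60.94e6 counts each, of which 89.25% to 90.62% fell in protein-coding genes. YTHDF3-ADAR replicate 1 stood apart. Its log2 CPM had Pearson's r of 0.985, 0.984 and 0.971 with YTHDF1-ADAR replicates 1, 2 and 3, and of 0.971 and 0.97 with YTHDF3-ADAR replicates 2 and 3, which had r of 0.992 with each other. Along the first principal component (61% of the variance) it lay at -6.7, between the YTHDF1-ADAR libraries at -55.3 to -41.8 and the other YTHDF3-ADAR libraries at 78.8 and 70.2. RNAs of the mitochondrial genome took 0.919% to 1.13% of counts in YTHDF1-ADAR libraries and 0.536%, 0.294% and 0.962% in YTHDF3-ADAR replicates 1, 2 and 3. Counts of calls are given with replicate 1 and, for the gene lists described, also without it. Those for classes of noncoding RNA are given with all 6 libraries only.

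Of the 24390 genes tested, 2202 (9.03%) differed at an adjusted p under 0.05, 1360 (5.58%) higher and 842 (3.45%) lower in YTHDF3-ADAR libraries. The median log2 difference of all tested genes was 0.015. At least 2-fold differences were reached by 822 of the higher and 243 of the lower genes. The libraries of 35.1% of all tested genes did not overlap between the groups (17.4% higher, 17.7% lower in YTHDF3-ADAR), and of the 2202 called genes this held for 2199. The number of calls turned on single libraries. Without YTHDF3-ADAR replicate 1 it was 12671 of 25378 (49.9%; 26.3% higher and 23.6% lower). Leaving out YTHDF1-ADAR replicate 1, 2 or 3 left 63, 47 or 80 calls, and leaving out YTHDF3-ADAR replicate 2 or 3 left 145 or 205. Of the 122 named genes that were called, 16 stayed called under all 16 alternatives run, among them ADARB1, MAP7D2, ZNF462, MID1 and NPTX2.

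Ranks of the highest and lowest genes were taken among called genes whose log2 CPM averaged 2 or more, with groups not overlapping. Over all tested genes, whatever their level, log2 differences ran from -9.114 to 8.303. By this ranking, the genes furthest above the YTHDF1-ADAR level were mostly near the floor there. MAP7D2, a microtubule-binding protein, stood at 1.522, 1.305 and 1.427 CPM in YTHDF1-ADAR libraries and at 19.86, 28.58 and 27.58 in YTHDF3-ADAR libraries, 17.9-fold higher (log2 4.16 ± 0.20, adjusted p = 0.0001927 by edgeR). TGFBR2, the type II receptor for TGF-beta, stood at 1.037, 0.9348 and 1.112 CPM against 13.09, 18.31 and 15.18 (3.92 ± 0.20, adjusted p = 0.0001927). ZNF462, a zinc finger protein of the nucleus, stood at 1.589, 1.341 and 1.574 CPM against 16.27, 25.39 and 23.52 (3.86 ± 0.22, adjusted p = 0.0002993). In these 3 genes all YTHDF3-ADAR libraries lay over 10 CPM and all YTHDF1-ADAR libraries under 2. TMEM132E (3.08 ± 0.14), LYPD1 (2.78 ± 0.17) and the zinc-sensing receptor GPR39 (2.77 ± 0.18) were likewise high in every YTHDF3-ADAR library. LYPD1 and GPR39 overlap on opposite strands of chromosome 2. The strand setting of the counting is not known here, so reads of LYPD1 and GPR39 may not be separable.

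In other genes replicate 1 lay well below replicates 2 and 3. CRABP2, which carries retinoic acid to its nuclear receptors, stood at 4.499, 4.78 and 4.721 CPM in YTHDF1-ADAR libraries and at 16.41, 101.9 and 88.11 in YTHDF3-ADAR replicates 1, 2 and 3 (3.88 ± 0.60, adjusted p = 0.01489). G0S2, an inhibitor of the lipase that starts triglyceride breakdown, stood at 1.722, 2.134 and 1.364 CPM against 2.386, 25.36 and 25.43 (3.35 ± 0.76, adjusted p = 0.03775). IGF2, a fetal growth factor, stood at 2.224, 2.311 and 3.462 CPM against 5.447, 22.8 and 27.57 (2.81 ± 0.54, adjusted p = 0.02637). The groups of these genes did not overlap, although replicate 1 of G0S2 was just above the highest YTHDF1-ADAR library. CDYL2 (2.87 ± 0.27) and the kinase gene PRKCB (2.80 ± 0.30) completed the 12 highest.

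**Figure D1:**
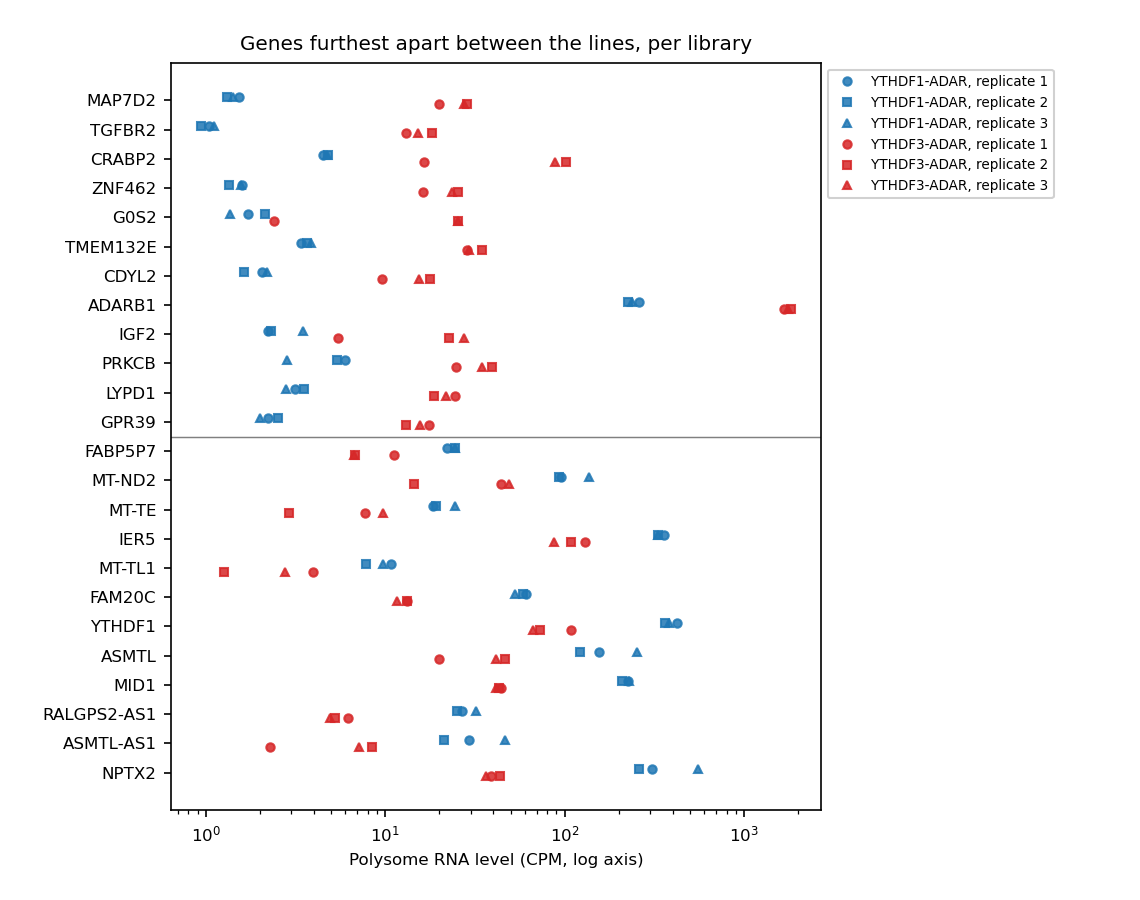
Level on polysomes (CPM, log axis) of the 12 genes highest and the 12 lowest in YTHDF3-ADAR relative to YTHDF1-ADAR libraries. Both sets were drawn from called genes whose log2 CPM averaged 2 or more. Each library gives 1 point (YTHDF1-ADAR blue, YTHDF3-ADAR red, marker shape for the replicate). The groups of each gene do not overlap; for G0S2 the YTHDF3-ADAR replicate 1 point (2.386 CPM) lies next to the blue points, and for MID1 the 3 red points fall together between 41.71 and 44.18 CPM.

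Among protein-coding genes of higher abundance (mean log2 CPM of at least 5), ADARB1 was followed by FOXO4, a forkhead transcription factor, at 25.5, 24.06 and 22.45 CPM against 109.1, 196.3 and 158.1 (2.69 ± 0.21, adjusted p = 0.002097). EEF1A2, an elongation factor isoform known from neurons and muscle, stood at 41.22, 36.21 and 34.58 CPM against 73.63, 194.4 and 199.4 (2.06 ± 0.34, adjusted p = 0.01848). The giant scaffold protein gene AHNAK (2.04 ± 0.46), FBXW4 (1.82 ± 0.22), CALCB, which encodes a calcitonin gene-related peptide (1.73 ± 0.30), ABHD14B (1.73 ± 0.33) and the IP3 receptor gene ITPR3 (1.69 ± 0.37) were the others. In each of these 5, YTHDF3-ADAR replicate 1 was the lowest library of its group.

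Several of the lowest genes, ranked by the same rule, were at like levels in all YTHDF3-ADAR libraries. NPTX2, a secreted neuronal pentraxin, stood at 305.9, 261.5 and 555.1 CPM in YTHDF1-ADAR libraries and at 38.93, 43.53 and 36.31 in YTHDF3-ADAR libraries, 9.45-fold lower (log2 -3.24 ± 0.29, adjusted p = 0.00339 by edgeR). MID1, a microtubule-associated ubiquitin ligase, stood at 225.9, 209.3 and 227.4 CPM against 44.18, 42.9 and 41.71 (-2.36 ± 0.12, adjusted p = 0.0001927). FAM20C, the kinase of secreted proteins, stood at 60.79, 58.6 and 53.23 CPM against 13.18, 13.19 and 11.67 (-2.18 ± 0.12, adjusted p = 0.0002771). In all 3 genes, replicate 1 lay with replicates 2 and 3. IER5, an immediate early gene, stood at 358.7, 332.0 and 330.3 CPM against 129.7, 109.2 and 87.45 (-1.65 ± 0.17, adjusted p = 0.00498). ASMTL (-2.29 ± 0.37) and its antisense transcript ASMTL-AS1 (-2.44 ± 0.47) were both lower; the sources used here do not give the strand setting of the counting, so reads of this pair may not be separable. RALGPS2-AS1 (-2.36 ± 0.16), the mitochondrial tRNAs MT-TL1 and MT-TE, MT-ND2 and FABP5P7, a pseudogene of FABP5, completed the 12 lowest. FABP5 itself, a fatty acid binding protein whose reads may be shared with that copy, was lower by 1.43 ± 0.24.

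YTHDF2-ADAR polysome libraries, which did not enter the test, were used to place the differences. Of the 1360 genes higher in YTHDF3-ADAR, 1204 had a YTHDF2-ADAR mean nearer to YTHDF1-ADAR, and of the 842 lower genes this held for 634. MAP7D2 stood at a mean of 0.379 CPM and TGFBR2 at 1.58 CPM in YTHDF2-ADAR libraries. Among the 12 lowest genes it held for 4 (MT-TL1, MT-TE, MT-ND2 and FABP5P7), while 8 had a YTHDF2-ADAR mean nearer to YTHDF3-ADAR. YTHDF2-ADAR means were 35.2 CPM for NPTX2, 44.8 for MID1, 10.4 for FAM20C and 102.6 for IER5. In those genes the YTHDF1-ADAR libraries were the ones that stood apart. The share of all tested genes with a YTHDF2-ADAR mean nearer to YTHDF1-ADAR was not counted.

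Genes of the extracellular matrix, the collagens, laminins and glycoproteins that cells secrete and attach to, were the list with the highest median difference. Of 36 tested members 16 were higher and none lower, beside 5.58% and 3.45% of all genes. The median was 1.30 against 0.015 over all genes, and all 36 lay above 0. COL1A1, the fibrillar collagen chain of bone and skin, stood at 8.796, 6.791 and 8.413 CPM in YTHDF1-ADAR libraries and at 20.8, 29.06 and 26.61 in YTHDF3-ADAR libraries (1.67 ± 0.17, adjusted p = 0.005589). COL5A1, another fibrillar chain, stood at 9.215, 8.431 and 9.966 CPM against 19.79, 28.67 and 24.77 (1.41 ± 0.17, adjusted p = 0.008028). Both were high in all 3 YTHDF3-ADAR libraries. HSPG2, the basement membrane proteoglycan perlecan, stood at 5.87, 5.98 and 6.903 CPM against 10.05, 53.94 and 57.13 (2.69 ± 0.56, adjusted p = 0.03157). AGRN, the proteoglycan agrin, stood at 35.24, 29.76 and 42.78 CPM against 65.49, 132.1 and 137.8 (1.64 ± 0.28, adjusted p = 0.0196). For these proteoglycan genes replicate 1 lay closer to YTHDF1-ADAR. Relative to the YTHDF1-ADAR mean, the list's median in replicates 1, 2 and 3 was 0.35, 1.67 and 1.39. YTHDF2-ADAR libraries stood at 0.35, 0.34 and 0.29, so replicate 1 lay at their level. Without replicate 1, 35 of 36 were higher, beside 26.3% of all genes. The other members higher were COL3A1, COL4A1, COL4A5, COL4A6, COL5A2, COL9A3, COL12A1, FBLN1, FBN2, LAMA4, LAMA5 and TNC, from 0.84 to 2.55. Fibroblast markers, which share COL1A1 and COL3A1 with this list, summed to 56.4 to 57.9 CPM in YTHDF1-ADAR and 66.6 to 94.5 CPM in YTHDF3-ADAR libraries, with 4 of 15 markers under 10 counts in every library; their part in the result was not tested.

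Cell adhesion genes were called both ways. Of 39 tested cadherins, integrins and related adhesion molecules, 7 were higher and 3 lower, beside 5.58% and 3.45% of all genes. The median was 0.69, with 35 members above 0. The list's median was 0.14, 0.87 and 0.64 in replicates 1, 2 and 3. Without replicate 1, 25 were higher and 4 lower, beside 26.3% and 23.6% of all genes. CDH4, the retinal cadherin, stood at 1.622, 1.252 and 1.091 CPM against 6.99, 7.492 and 7.17 (2.44 ± 0.21, adjusted p = 0.002252), and PCDH19, a protocadherin on the X chromosome, at 4.616, 4.762 and 4.49 CPM against 13.96, 14.06 and 11.89 (1.52 ± 0.15, adjusted p = 0.003522). The 3 YTHDF3-ADAR libraries of both genes lay close together. CDH3, the placental cadherin, was higher by 3.42 ± 0.71 with 0.7954 CPM in replicate 1 and 7.029 and 5.78 in replicates 2 and 3. CDH12, ITGA3, NCAM2 and NRCAM were higher too, while the protocadherin genes PCDH7 (-0.92), PCDH9 (-0.61) and PCDH10 (-0.50) were lower. Epithelial markers, of which 9 of 18 had under 10 counts in every library and 2 were at 0, summed to 233 to 334 CPM in YTHDF1-ADAR and 342 to 435 CPM in YTHDF3-ADAR libraries. Among their 9 tested members DSP, the desmosomal plaque protein (1.20 ± 0.23), and CLDN7, a tight junction claudin (2.46 ± 0.48), were higher and TJP1 (-0.81 ± 0.17) was lower. Without replicate 1, 6 of these 9 were higher and 1 lower.

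Neuronal genes, which HEK293T cells are known to express, had 7 of 35 members higher and 2 lower, with a median of 0.64. With all 6 libraries 5.58% of all genes were higher and 3.45% lower. Without replicate 1, 9 were higher and 7 lower, near the shares over all genes (26.3% and 23.6%). MAPT, the microtubule protein tau, stood at 14.48, 12.98 and 13.45 CPM against 17.74, 35.87 and 37.99 (1.16 ± 0.27, adjusted p = 0.03844). The RNA-binding protein gene ELAVL2 (0.68 ± 0.12), NPTXR, the pentraxin receptor (0.78 ± 0.14), DPYSL3 (0.82), SYT1 (0.73), TUBB2A (0.52) and TUBB2B (0.66) were the other higher members. NEFL, the light neurofilament chain, stood at 325.7, 293.7 and 415.9 CPM against 125.2, 132.0 and 151.9 (-1.34 ± 0.17, adjusted p = 0.009386), and NPTX2 was lower as given above. Pentraxin and receptor genes thus differed in opposite directions. Kidney developmental factors were called both ways among 15 tested members: PAX2 (0.89 ± 0.17) and LHX1 (0.97 ± 0.19) higher, SIX2 (-1.12 ± 0.17) and OSR1 lower. Without replicate 1, 6 were higher and 7 lower. Of 38 tested HOX genes, which set position along the body axis, 5 were lower, among them HOXA3 (-1.19 ± 0.28) and HOXD13 (-1.07 ± 0.20), and HOXC12 was higher (2.73 ± 0.34), with a list median of -0.47. Without replicate 1, 31 HOX genes were lower and 1 higher. Blood cell markers, of which 6 of 15 had under 10 counts in every library, summed to 11.5 to 14.5 CPM in YTHDF1-ADAR and 18.6 to 25.6 CPM in YTHDF3-ADAR libraries.

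The mRNAs of the cytosolic ribosome had medians below the YTHDF1-ADAR level in each YTHDF3-ADAR library, by differing amounts. Ribosomal protein mRNAs begin with a run of pyrimidines at the cap, the terminal oligopyrimidine or TOP motif, through which their translation is known to follow mTOR signalling. The start sites of called members are shown so that this feature can be seen. Each window holds 15 bases before the RefSeq start and 15 from it onward (GRCh38.p14, plus strand, 5′ to 3′), with the longest unbroken run of C and T in capitals. RPS18 is at chr6:33272060-33272089, RPL38 at chr17:74203663-74203692, RPS24 at chr10:78033848-78033877 and RPL36A at chrX:101390996-101391025.
RPS18: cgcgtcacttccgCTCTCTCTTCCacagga
RPL38: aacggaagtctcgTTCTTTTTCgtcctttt
RPS24: cggcgaatcgtggTTCTCTTTTCCTCCTTg
RPL36A: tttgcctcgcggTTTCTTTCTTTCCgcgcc
In such 30-base windows, 48 of the 63 ribosomal protein genes matched in the RefSeq table (76.2%) held a pyrimidine run of 8 or more bases, against 13.7% of all 35116 promoters. The median longest run was 11 bases against 4. A run in this window is a description of the sequence and not a measured start.

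Of 79 tested cytosolic ribosomal protein genes 8 were lower and none higher, beside 3.45% lower and 5.58% higher of all genes. The median difference was -0.57. The groups did not overlap for 56 of the 79, all lower, beside 17.7% of all genes. RPS18 stood at 667.1, 741.5 and 673.1 CPM in YTHDF1-ADAR libraries and at 449.9, 224.5 and 386.2 in YTHDF3-ADAR libraries (-0.97 ± 0.25, adjusted p = 0.04948 by edgeR). RPL38 stood at 428.5, 455.3 and 450.7 CPM against 299.3, 215.0 and 259.7 (-0.79 ± 0.16, adjusted p = 0.0281). RPS24 stood at 468.8, 534.1 and 504.6 CPM against 337.0, 231.6 and 343.1 (-0.73 ± 0.18, adjusted p = 0.04783). All YTHDF3-ADAR libraries of these genes lay below all YTHDF1-ADAR libraries, and replicate 2 was the lowest. RPL36A (-0.71 ± 0.17) was lower as well. Of the called members 3, RPL30 (-1.19 ± 0.18), RPL7 (-1.02 ± 0.24) and RPS20 (-0.96 ± 0.20), are on chromosome 8, whose genes are described below. Off that chromosome 5 of 75 were lower, with a median of -0.55.

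Per library, the ribosomal protein medians of replicates 1, 2 and 3 were -0.23, -1.05 and -0.54, while YTHDF2-ADAR libraries lay at 0.14, -0.04 and 0.01. Without replicate 1, 69 of 79 were lower and none higher, beside 23.6% lower and 26.3% higher of all genes. In total RNA the same genes stood at -0.15, 0.29 and 0.24 in YTHDF3-ADAR replicates 1, 2 and 3, with a median fitted difference of 0.13, 1 member higher and none lower. RPS18 had a total RNA difference of 0.06 (adjusted p = 0.8174 by edgeR). No gene passed the test of the difference between the polysome and the total RNA contrasts (edgeR, 0 of 26215, with 573 at an unadjusted p under 0.05), so the ribosomal protein genes were not shown one by one to differ between the fractions. Other TOP mRNAs had a median of -0.21 on polysomes and 0.25 in total RNA. Of their 19 members EIF3H, an initiation factor subunit on chromosome 8, was lower on polysomes (-0.59 ± 0.13), and without replicate 1, 11 were lower and 1 higher. EEF1A1, the main elongation factor, stood at 5127, 5199 and 5598 CPM against 6173, 3256 and 4337 and was not called.

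**Figure D2:**
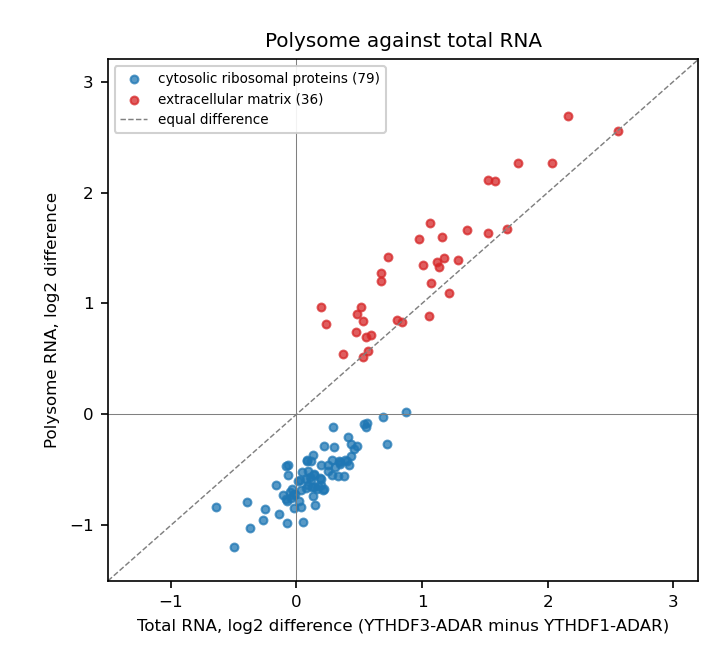
Log2 difference between YTHDF3-ADAR and YTHDF1-ADAR libraries in total RNA (x axis) and polysome RNA (y axis), with 1 point per gene for 79 cytosolic ribosomal protein genes (blue) and 36 extracellular matrix genes (red), and a dashed line of equal difference. The ribosomal protein points lie below the dashed line, with a median of -0.57 on polysomes and 0.13 in total RNA, while matrix genes have medians of 1.30 and 1.03.

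Total RNA libraries of the same lines are labelled as input and carry the same replicate numbers as the polysome libraries. They had 347 genes called (1.41% of 24548), 210 higher (0.855%) and 137 lower (0.558%). Of 2145 genes called on polysomes and tested in total RNA, 2138 (99.7%) had the same sign there, beside 83.7% of all genes tested in both. In the same direction 304 were called. Whether both fractions came from the same cultures is not stated, so the shared sign is not an independent check. The total RNA count varied with the fit, at 3308 with DESeq2, 4856 with all 18 libraries and 16 with the replicate block. Pearson's r of the 2 log2 differences over called genes was 0.972, a description across genes that are not independent. TGFBR2 differed by 3.69, MAP7D2 by 4.08 and NPTX2 by -3.15 in total RNA.

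In other parts of the translation and mRNA machinery 0% to 12.9% of list members were called with all 6 libraries, beside 9.03% of all genes. Without replicate 1, 26.3% of all genes were higher and 23.6% lower. Initiation factors had 3 of 31 members higher, EIF3D (0.69 ± 0.14), the helicase EIF4A2 (0.65 ± 0.15) and the scaffold EIF4G3 (0.54 ± 0.14), and EIF3J lower (-0.50 ± 0.11), and without replicate 1, 6 were higher and 14 lower. None of 18 genes of m6A writers, erasers and other readers was called, with a median of 0.05, and without replicate 1, 2 were higher and 7 lower. METTL3, the catalytic subunit of the writer, stood at 54.03, 51.17 and 55.66 CPM against 64.4, 65.08 and 50.34. In the decay machinery LSM1, which binds mRNA 3′ ends for decapping (-0.91 ± 0.11), and the deadenylase CNOT7 (-0.93 ± 0.13) were lower among 32 members, and both are on chromosome 8. Without replicate 1, 11 decay genes were lower and 6 higher. None of 31 proteasome subunits was called with all 6 libraries, and 18 were lower and none higher without replicate 1. Their median in replicates 1, 2 and 3 was 0.18, -0.23 and -0.44.

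Mitochondrial mRNAs, which mitochondrial ribosomes translate, had all 13 members below 0 with a median of -1.08. By the test 2 were lower, beside 3.45% of all genes. Without replicate 1, 3 were lower, near the share of all genes in that fit (23.6% lower, 26.3% higher). MT-ND2, a complex I subunit, stood at 95.74, 93.54 and 137.0 CPM against 44.28, 14.4 and 48.88 (-1.60 ± 0.41, adjusted p = 0.04917), and MT-ATP8, an ATP synthase subunit, at 61.29, 64.7 and 78.13 CPM against 31.67, 10.96 and 32.27 (-1.45 ± 0.36, adjusted p = 0.04761). Replicate 2 was the lowest for both. MT-CO1 stood at 1947, 1922 and 2423 CPM against 759.0, 478.8 and 2356, where replicate 3 lay among the YTHDF1-ADAR libraries. The total RNA median of this list was -1.20. Nuclear-encoded respiratory chain subunits had 9 of 75 members lower and 1 higher (NDUFV1, 0.50), with a median of -0.18, and 33 lower and 5 higher without replicate 1. UQCRB of complex III, on chromosome 8, was lower by 0.99 ± 0.13 and COX6B1 of complex IV, on chromosome 19, by 0.61 ± 0.12. The protein-import genes of the endoplasmic reticulum TRAM1 (-0.96 ± 0.12), SEC61B (-0.75 ± 0.10), SEC61G (-0.63 ± 0.15) and SSR3 (-0.61 ± 0.15) were the 4 lower of 28 folding and secretion genes, with none higher. Without replicate 1, 20 of these 28 were lower and none higher.

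Genes of metabolism and stress also differed between the YTHDF3-ADAR replicates. For scale, 5.58% of all genes were higher and 3.45% lower, and 26.3% and 23.6% without replicate 1. Of 29 genes of ketone, fatty acid and amino acid catabolism 5 were higher and none lower, with a median of 0.42. The list's median was 0.09, 0.57 and 0.48 in replicates 1, 2 and 3, and without replicate 1, 21 were higher and 3 lower. CPT1A, the gate of fatty acid entry into mitochondria, stood at 20.99, 18.22 and 20.9 CPM against 28.2, 63.88 and 63.58 (1.37 ± 0.29, adjusted p = 0.03206). Among the others, CPT2, DBT and ETFB were higher by 0.53, 0.63 and 0.48. In the list of integrated stress response and ATF4 targets, PHGDH of serine synthesis was higher (1.01 ± 0.20) and ATF5 lower (-1.01 ± 0.25) among 29 members. ASNS, asparagine synthetase, stood at 90.54, 77.68 and 113.7 CPM against 81.32, 406.8 and 351.5 and was not called (adjusted p = 0.08308). CHAC1, a glutathione-degrading enzyme, stood at 5.669, 5.662 and 12 CPM against 3.712, 34.43 and 34.22. Replicate 1 lay within the YTHDF1-ADAR range for ASNS and below it for CHAC1, with replicates 2 and 3 above it, and the list median was -0.24, 0.65 and 0.62 in replicates 1, 2 and 3. Without replicate 1, 20 of 29 were higher and 1 lower. Of 26 tested interferon-stimulated and double-stranded RNA sensing genes, 3 were higher and none lower: IFIH1 (2.26 ± 0.36), which encodes the sensor MDA5, DDX58 (0.69 ± 0.17), which encodes RIG-I, and IRF7 (1.59 ± 0.28). Without replicate 1, 13 were higher and 1 lower. IFIH1 stayed at 1.226 CPM or less in each library.

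**Figure D3:**
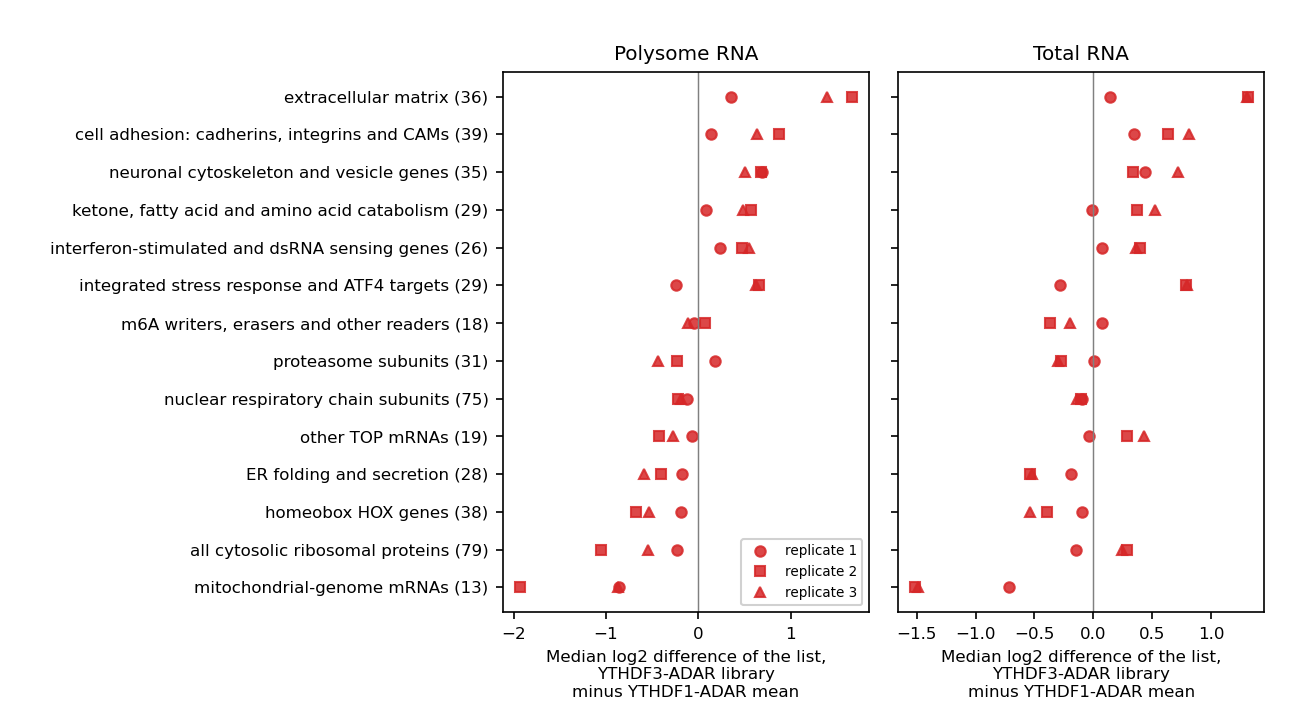
Median log2 difference of 14 gene lists (number of tested genes in brackets) in each YTHDF3-ADAR library relative to the mean of the YTHDF1-ADAR libraries, for polysome RNA (left) and total RNA (right), with 1 marker shape per replicate. Matrix genes lie above 0 in each library, from 0.35 to 1.67 on polysomes. Ribosomal protein genes lie from -1.05 to -0.23 on polysomes and from -0.15 to 0.29 in total RNA.

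The calls were not spread evenly over the chromosomes. Of 15234 tested protein-coding genes 1719 (11.3%) were called, 1116 (7.33%) higher and 603 (3.96%) lower. Chromosome 8 held 3.35% of these genes and 24.4% of the lower calls: 147 of its 511 genes (28.8%) were lower and 24 higher, against 3.1% lower elsewhere. Its median difference was -0.39 and lay at -0.41, -0.33 and -0.40 in YTHDF3-ADAR replicates 1, 2 and 3. YTHDF2-ADAR libraries stood at -0.38, -0.39 and -0.34 relative to YTHDF1-ADAR, and the total RNA difference between YTHDF3-ADAR and YTHDF1-ADAR was -0.41. YTHDF3 itself lies on this chromosome and, at 0.12, was above its median. Without replicate 1, 272 of 518 genes were lower and 82 higher, with a median of -0.37. Of all 15487 protein-coding genes in that fit, 4155 were lower and 4692 higher. Divided into windows of 20000000 bases, 6 of the 8 windows of chromosome 8 had medians at or below -0.2, while the lowest of any other chromosome was -0.15. FABP5, NEFL, TRAM1, UQCRB, CNOT7, LSM1, RPL30, RPL7 and RPS20, described above, are all on chromosome 8. NDRG1, a stress-induced gene on the same chromosome, was higher (0.87 ± 0.17).

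Chromosome 22 showed the opposite sign. Of its 367 protein-coding genes 74 (20.2%) were higher and 1 lower, with a median of 0.28. Its median was 0.36, 0.22 and 0.20 in YTHDF3-ADAR replicates 1, 2 and 3, and between -0.05 and 0.00 in YTHDF2-ADAR libraries. EIF3D, NPTXR, FBLN1, CDC45, a part of the replicative helicase (0.56 ± 0.11), and SREBF2, the regulator of sterol synthesis (0.72 ± 0.14), are on this chromosome. Without replicate 1, 167 of 380 genes were higher and 60 lower, with a median of 0.20. Of all 15487 protein-coding genes in that fit, 4692 were higher and 4155 lower. Other chromosomes also had medians above 0 and more higher than lower calls with all 6 libraries. Among them were chromosomes 17 (0.165, 119 higher and 15 lower), 1 (0.154, 145 and 20) and 3 (0.131, 93 and 17). The window with the highest median was on chromosome 9 (positions 20000001 to 40000000, GRCh38), where 36 of 104 genes were higher and none lower, with a median of 0.54, including ELAVL2 and DDX58. YTHDF2-ADAR libraries were also high there, at 0.45, 0.42 and 0.45. Chromosome 3 (20000001 to 40000000), which holds TGFBR2, had a median of 0.36 with 12 of 64 genes higher, and chromosome 17 (20000001 to 40000000), which holds TMEM132E, one of 0.30 with 32 of 161 higher. No gene in either of these windows was lower. Of the 154 windows with at least 20 genes, 21 off chromosome 8 had medians above 0.2. The copy number of chromosomes was not measured in these data.

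**Figure D4:**
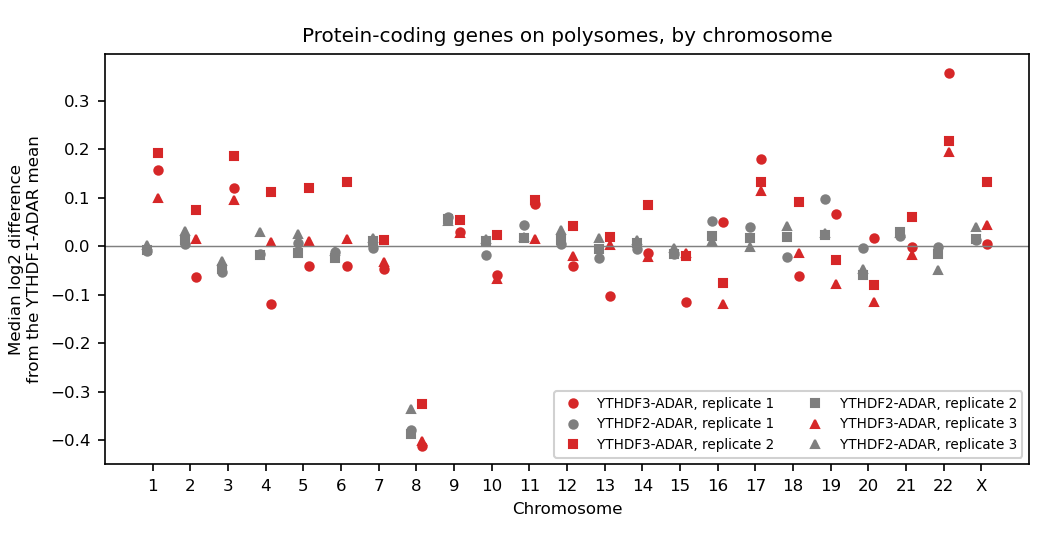
Median log2 difference from the YTHDF1-ADAR mean of protein-coding genes on polysomes (y axis) by chromosome (x axis), for the 3 YTHDF3-ADAR libraries (red) and the 3 YTHDF2-ADAR libraries (grey). On chromosome 8 all 6 points lie between -0.41 and -0.33; on chromosome 22 the red points lie between 0.20 and 0.36 and the grey points between -0.05 and 0.00.

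The place of YTHDF3-ADAR replicate 1 was followed gene by gene. The genes were chosen by the values of replicates 2 and 3, so a shortfall of replicate 1 is partly built in. Places were taken on linear CPM. On that scale a log midpoint lies nearer 0% for higher genes and nearer 100% for lower genes, so their medians do not compare directly. In 192 genes the mean of replicates 2 and 3 was at least 4-fold above the YTHDF1-ADAR mean, at 4 CPM or more. On a scale on which the YTHDF1-ADAR mean is 0% and the mean of replicates 2 and 3 is 100%, replicate 1 lay under 20% for 122 genes, from 20% to 80% for 58 and at 80% or above for 12, with a median of 12.4%. Of the 122 genes 70 were called and of the 12 genes all 12. In the opposite direction 26 genes had a YTHDF1-ADAR mean of 4 CPM or more, at least 4-fold above replicates 2 and 3. There replicate 1 lay under 20% for 6 genes, from 20% to 80% for 8 and at 80% or above for 12, among them NPTX2, MID1, FAM20C and YTHDF1, with a median of 59.2%. Among 155 of the 192 genes that were as far apart in total RNA, the place of total RNA replicate 1 went with the place on polysomes (Pearson's r 0.869, a description across genes).

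**Figure D5:**
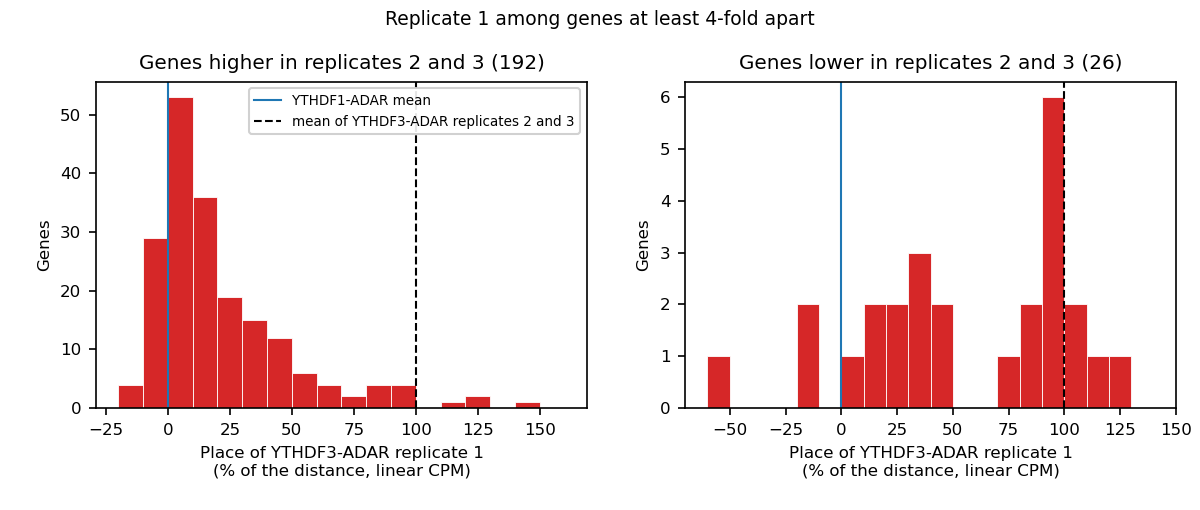
Number of genes (y axis) by the place of YTHDF3-ADAR replicate 1 between the YTHDF1-ADAR mean (0%, blue line) and the mean of YTHDF3-ADAR replicates 2 and 3 (100%, dashed line), for 192 genes at least 4-fold higher (left) and 26 genes at least 4-fold lower (right) in replicates 2 and 3. Of the higher genes 122 lie under 20%, with a median of 12.4%. Of the lower genes 12 lie at 80% or above, with a median of 59.2%. Genes were chosen by replicates 2 and 3, and the scale is linear CPM, so the medians of the panels do not compare directly.

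Noncoding RNAs differed by class, beside 5.58% higher and 3.45% lower of all genes. Of 200 tested small nucleolar RNAs 15 (7.5%) were lower and none higher. Of 81 small nuclear RNAs 12 (14.8%) were lower and none higher. The 5243 long noncoding RNAs had more higher than lower calls, 182 and 119, with 5.74% called against 9.03% of all genes. MALAT1, a nuclear speckle RNA, stood at 569.4, 526.0 and 658.9 CPM against 238.3, 240.9 and 387.1 (-1.02 ± 0.22, adjusted p = 0.03469). Of 52 replication-dependent histone genes 6 were lower and 1 higher. Without replicate 1, 13 were lower, near the 23.6% of all genes, and 8 higher, beside 26.3% of all genes. The linker histone gene H1-3 stood at 166.2, 204.9 and 205.3 CPM against 62.04, 105.7 and 87.16 (-1.18 ± 0.20, adjusted p = 0.01981). The groups of both genes did not overlap.

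Editing, the readout of the fusions, was available per gene from the authors' editing tables with 1 value over the replicates. Among 14737 tested protein-coding genes with a symbol, the authors listed 46.1% as edited by YTHDF1-ADAR and 47.1% as edited by YTHDF3-ADAR. Of the genes higher in YTHDF3-ADAR, 31.9% were listed for YTHDF1-ADAR and 40.9% for YTHDF3-ADAR; of the lower genes, 54.1% and 44.2%. The median level was 3.27 log2 CPM for higher genes and 5.23 for lower genes, against 4.79 for all. Each group was thus listed more often by the construct whose line held more of its mRNA, and the part of expression level in this was not tested.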

How the data were processed

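Polysome and total RNA of HEK293T lines with inducible YTHDF-ADAR fusions was sequenced from strand-specific, ribosomal RNA-depleted libraries, 3 per group. Per the submitters' processing notes, STAR 2.7.7, featureCounts 2.0.1 and DESeq2 were used on GRCh38; the sources used here do not give the strand setting or annotation release. The deposited table holds raw counts per gene and library. Its 1 row that names no human gene, at most 1.37e-05% of a polysome library, was left out. Gene names, types and coordinates came from the authors' deposited comparison table. The authors' editing tables give the number of sites and a polysome editing score per gene; no library values or depths are known for them.

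The main fit was edgeR 4.0.16 (quasi-likelihood, robust; R 4.3.3) on the 6 polysome libraries alone, with filterByExpr (minimum count 10), TMM factors and Benjamini-Hochberg adjusted p under 0.05 over all 24390 genes. SE is the log2 difference divided by the root of F, and log2 CPM of single libraries used a prior count of 2. No molecular identifiers are named for the reads, so they are not independent molecules and errors cover these libraries only. Total RNA (6 libraries) and the difference between fractions (12 libraries) were fitted likewise. Alternatives were DESeq2 1.42.0, other scalings and filters, fits of 9 or 18 libraries, the replicate block, and leaving out each library.

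Named genes are the fusion and deaminase genes, the 12 highest and 12 lowest called genes (mean log2 CPM of at least 2, groups not overlapping), the 8 highest and lowest protein-coding ones (at least 5), and up to 4 members per list by p. Other genes named (called members of the lists beyond those 4, ASNS, CHAC1, METTL3, EEF1A1 and MT-CO1) were chosen after their values were seen. The comparison, the 36 gene lists and the rule were chosen with earlier results of these data known. The chromosome medians were added after seeing the data. Replicate numbers did not pair the lines: same-numbered libraries had deviations from their group means correlated at 0.146, -0.146 and 0.222. No library pair agreed within sampling noise. The fit was tested on simulated data. Start-site sequences are from RefSeq (GRCh38.p14), with 63 of 79 ribosomal protein genes matched. Some withheld genes are not reported here.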

Additional observations from a re-analysis of the deposited data

Results flagged for a closer look

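A row of the count table that names no human gene held 6 reads in YTHDF1-ADAR polysome replicate 1 and 7 in YTHDF3-ADAR polysome replicate 3, above the 3 counts that a count of 0 allows; the other 4 polysome libraries of these lines held 1 or 2. It took part in no comparison. Groups of 3 libraries were too small for a test of single outlying libraries.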

How the results depend on the processing

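The number of genes differing on polysomes (2202) was 4769 with DESeq2, 5539 in the fit of 9 polysome libraries and 6245 in that of all 18, where the other lines lend their spread. Leaving out 1 library gave 47 to 12671. With the replicate block it was 1822 (1166 higher, 656 lower), with 10 mitochondrial mRNAs lower in place of 2 and 22 matrix genes higher in place of 16. The total RNA count of 347 became 3308 with DESeq2, 4856 with all 18 libraries and 16 with the replicate block. The difference between the fractions had 0 calls in each of its fits, including the block, with 573 to 1297 genes at an unadjusted p under 0.05. Of the 122 named called genes, 23 lost the call with the block and 89 to 102 without YTHDF1-ADAR replicate 1, 2 or 3 or YTHDF3-ADAR replicate 2 or 3, and no sign reversed. List medians close to 0 changed sign: mRNA decay machinery (-0.09) ran from -0.13 to 0.006 and sterol synthesis and uptake (0.04) from -0.051 to 0.12 over the libraries left out, with -0.045 for sterol genes without YTHDF3-ADAR replicate 2. With at least 1 CPM in all 6 libraries, kidney developmental genes moved from -0.16 to 0.003 and neuronal genes from 0.64 to 0.50. Without normalization factors chromosome 8 stood at -0.30 and the chromosome 9 window at 0.63, and chromosome 22 ran from 0.18 (0.20 with the genes filtered anew) to 0.31 over the libraries left out. The cause was not tested. Having 3 libraries per group, with YTHDF3-ADAR replicate 1 apart, limits which differences can be called.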
